A study of Canis lupus familiaris with 22 samples.

Results

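The genes described here were those of protein translocation into the endoplasmic reticulum and of vesicle traffic, measured in spontaneous canine mammary tumours (CMTs) and in tissue labelled healthy. Members were the genes with a curated transcript accession on the array whose symbol began with SRP, SEC, SSR, SPCS, RPN1, RPN2, DDOST, RAB, ARF, VAMP, STX, COP or TMED. The rule used names and no measured value. It took in 32 of the 1458 genes that carried a symbol, among 36619 genes and unnamed targets on the array. Of these 32 members, 14 belonged to the translocation machinery, 14 were RAB GTPases and 2 were TMED cargo receptors. The remaining members, RABAC1 and STXBP2, carried a prefix but belonged to none of these classes, and no ARF, VAMP or STX gene was among the genes with a symbol.

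Total RNA of malignant tumours, benign tumours and healthy tissue of dogs was hybridised to 1-colour Agilent arrays, mostly with duplicate arrays a and b for each tissue. Scanner values covered 5 malignant tumours, 3 benign tumours and 2 healthy tissues on 19 arrays, and the duplicate arrays of a tissue were averaged and counted once. The groups carried no treatment, and the labels stated neither age nor breed. The tumour groups were mixed in histology: the study classed malignant tumour 3 as a myoepithelioma and malignant tumour 5 as a lipid rich carcinoma. A level here is the log2 processed signal of the gene's brightest probe minus the 75th percentile of the array, so that a gap of 1 between tissues is a 2-fold change in signal. Levels of different genes come from different probes and were not set against each other. In bulk tissue, fewer cells of a type and less RNA per cell cannot be told apart.

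Proteins bound for secretion or for membranes are recognised while still on the ribosome by the signal recognition particle, which docks them at the SEC61 channel of the endoplasmic reticulum. The translocon-associated SSR subunits assist the passage, the signal peptidase complex removes the signal sequence and the oligosaccharyl transferase attaches glycans. Onward transport uses coated vesicles that cargo receptors of the TMED family help to load. RAB GTPases then give each organelle its identity and direct vesicles to the right membrane. Cells that secrete heavily, such as the lactating mammary gland and the acinar cells of the pancreas, are rich in the translocation machinery.

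All 32 members passed the filter on dim probes, and 30 were well above background on all 19 arrays. RAB25 was well above background on 16 arrays, and TMED11 on 10. Duplicate arrays of a tissue differed in a member by a median of 0.0708 on the log2 scale, with the members' medians between 0.0284 and 0.271. Between 62.2% and 83.2% of probes were well above background on an array, and no spot was saturated.

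The 2 healthy tissues stood apart from the tumours and from each other in genes of another organ. Of 24 genes listed as markers of the exocrine pancreas, 7 were measured (CPB1, CELA1, PNLIPRP1, CLPS, PLA2G1B, REG3A and GP2). Their summed level was between 0.70 and 1.84 in the 8 tumours, 12.18 in healthy tissue 1 and 10.06 in healthy tissue 2, on the log2 scale. All 7 were higher in healthy tissue 1 than in healthy tissue 2, and 6 of the 7 passed the limma test as lower in malignant tumours, CELA1 being the exception. REG3A, a pancreatic secretory protein, was well above background on all 4 healthy arrays and on none of the 15 tumour arrays. It met the filter of 4 arrays through the healthy tissues alone, so its place among the 6 is no independent support. Of the 6 mammary epithelial genes measured, KRT14, KRT19, CDH1, PGR and ERBB2 were also above background on all 4 healthy arrays, and ESR1 on 2. Of the milk protein genes measured, LTF was above background on 4 healthy arrays, LALBA on 3 and CSN2 on 2. Class results against healthy tissue are therefore given with and without each healthy tissue, and the part of pancreatic RNA in them was not tested.

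The translocation genes were set against the tumours first. They were high in healthy tissue 1 and not in healthy tissue 2. Healthy tissue 1 lay above all 8 tumours in 10 of the 14 (DDOST, SEC11C, SEC61B, SEC61G, SPCS2, SRP14, SRP68, SRP72, SSR1 and SSR4), where 17.4% of all genes tested did so. Healthy tissue 2 lay above all tumours in none of the 14, against 5.87% of all genes. Between the healthy tissues themselves, all 14 were higher in healthy tissue 1, by a median of 1.98 (range 0.66 to 3.33), while 51.2% of all genes were higher there, with a median difference of 0.04.

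**Figure D1:**
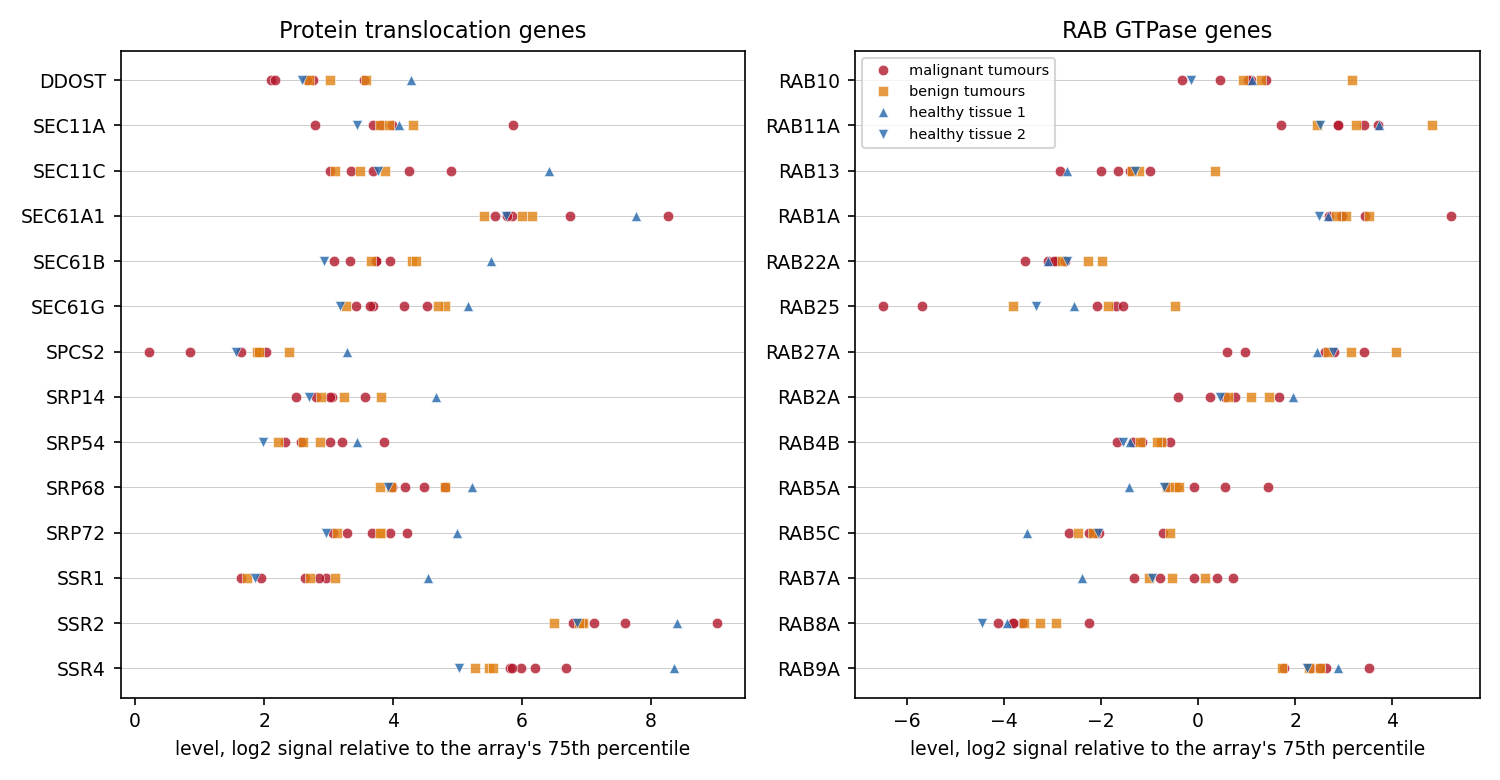
Levels of the 14 translocation genes (left) and the 14 RAB GTPase genes (right) in each of 10 tissues, as log2 signal relative to the array's 75th percentile. Circles are malignant tumours, squares benign tumours, upward triangles healthy tissue 1 and downward triangles healthy tissue 2. Healthy tissue 1 lies to the right of all 8 tumours for 10 of the translocation genes and, among the RAB genes, for RAB2A alone.

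Among the signal recognition particle genes, SRP72 and SRP68 encode the pair of proteins that bind together on the particle's RNA. SRP72 had a level of 4.99 in healthy tissue 1 and 2.95 in healthy tissue 2, with the tumours between 3.07 and 4.21. Healthy tissue 2 was thus below every tumour and healthy tissue 1 above every tumour. SRP68 was 5.23 and 3.92 in the healthy tissues and 3.79 to 4.81 in the tumours. SRP14, part of the domain that pauses translation, was 4.67 and 2.69 in healthy tissue and 2.49 to 3.82 in the tumours. SRP54, the GTPase that binds the signal sequence, was the exception in this group: healthy tissue 1 had 3.44, but malignant tumour 5 had 3.85, and the other tumours lay between 2.22 and 3.21.

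SEC61A1 forms the channel itself, and SEC61B and SEC61G are its small subunits. SEC61B was 3.34, 3.08, 3.73, 3.95 and 3.74 in malignant tumours 1 to 5, 3.65, 4.29 and 4.35 in benign tumours 1 to 3, and 5.52 and 2.93 in the healthy tissues. All tumours fell between the healthy values. SEC61G did likewise, with 5.16 and 3.18 in healthy tissue and 3.28 to 4.81 in the tumours. SEC61A1 was 5.85, 5.58, 8.26, 5.77 and 6.75 in the malignant tumours, 5.40, 6.0 and 6.16 in the benign tumours, and 7.76 and 5.75 in healthy tissue. Malignant tumour 3 was thus the highest tissue for the channel subunit, above healthy tissue 1.

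The SSR genes encode the translocon-associated protein complex. SSR4, its delta subunit, was 5.81, 6.20, 6.67, 5.98 and 5.85 in the malignant tumours, 5.26, 5.48 and 5.55 in the benign tumours, and 8.35 and 5.02 in the healthy tissues. It had the widest gap of all translocation genes between the healthy tissues, 3.33, and every malignant tumour was above every benign one. SSR1, the alpha subunit, was 4.54 and 1.85 in healthy tissue and 1.65 to 3.1 in the tumours. For SSR2, the beta subunit, malignant tumour 3 was again highest at 9.02, with 8.40 in healthy tissue 1, 6.85 in healthy tissue 2 and 6.50 to 7.60 in the other tumours.

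SEC11A and SEC11C are alternative catalytic subunits of the signal peptidase, and SPCS2 is an accessory subunit. SEC11C was 4.25, 3.69, 3.03, 3.34 and 4.90 in the malignant tumours, 3.48, 3.09 and 3.88 in the benign tumours, and 6.42 and 3.76 in the healthy tissues. Healthy tissue 1 exceeded the highest tumour by more than 1, and healthy tissue 2 lay among the tumours. SEC11A differed in its order, being highest in malignant tumour 5 at 5.86, with 4.09 and 3.43 in healthy tissue and 2.79 to 4.30 in the other tumours. SPCS2 was 1.91, 1.64, 0.21, 0.85 and 2.03 in the malignant tumours, 1.90, 2.38 and 1.91 in the benign tumours, and 3.28 and 1.57 in healthy tissue. Malignant tumours 3 and 4 were its lowest tissues. DDOST, a subunit of the oligosaccharyl transferase, was 4.27 and 2.59 in healthy tissue and 2.11 to 3.58 in the tumours.

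The malignant tumours were then compared with healthy tissue, to ask which members were differentially expressed in malignancy. None of the 14 translocation genes and none of the 14 RAB genes passed the test at an adjusted p of 0.05 (limma, Benjamini-Hochberg over 28936 genes), and 1 of the 32 members did, TMED11. Over all genes tested, 0.304% passed. At an unadjusted p of 0.05 (limma) the count of members was also 1, against 1696 of 28936 genes. The log2 fold changes of the translocation genes had a median of -0.46, with 12 of 14 below 0, against 0.07 over all genes tested and 0.05 over genes with a symbol. Those of the RAB genes had a median of 0.24, with 8 of 14 above 0.

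This gap rested on 1 healthy tissue. With healthy tissue 1 left out, the translocation median turned to 0.62, with 13 of 14 above 0, and the RAB median was 0.37. With healthy tissue 2 left out, it was -1.49, with 14 of 14 below 0, and the RAB median was 0.17. The difference between the class medians, translocation minus RAB, was accordingly -0.69 with both healthy tissues. It was 0.25 without healthy tissue 1 and -1.65 without healthy tissue 2. Taken per tumour against the healthy mean, it had an SD of 0.41 over the 5 malignant tumours. That SD leaves out the spread of the healthy tissues, which stood at 0.91 and -0.91 on the same scale. Within the slide that carried both healthy tissues the difference was -1.04, within the slide with healthy tissue 1 alone it was -2.02, and within the slide with healthy tissue 2 alone it was -0.11.

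By size, the translocation genes that stood lowest in malignant against healthy tissue were SEC11C, SPCS2, SSR1 and DDOST. The log2 fold change of SEC11C was -1.25 (SE 0.74, adjusted p 0.918) and that of SPCS2 was -1.1 (SE 0.64, adjusted p 0.914). For SSR1 and DDOST it was -0.79 each. The other translocation genes lay between -0.69 for SRP14 and 0.28 for SRP54. None of them passed the test. The sign for SRP54 depended on the probe: a second one, with a mean level of 2.61 against 2.81, gave -0.35.

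**Figure D2:**
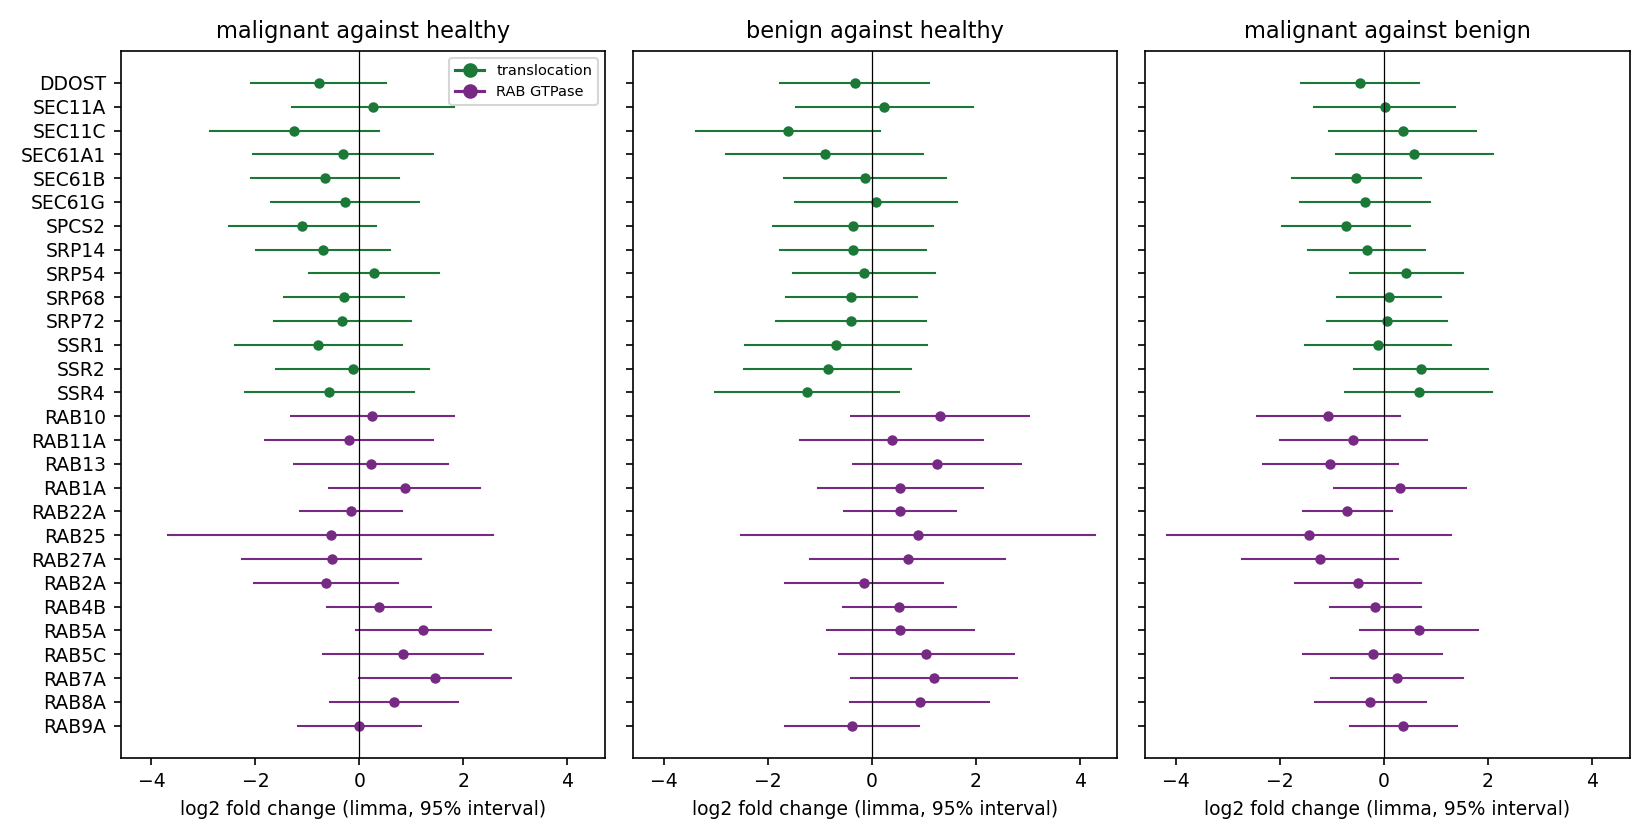
Log2 fold changes (limma) of the 14 translocation genes and the 14 RAB GTPase genes in 3 comparisons, as points with 95% confidence intervals. The horizontal axis is the log2 fold change of the first group over the second, and every interval in all 3 panels crosses 0.

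The benign tumours were compared with the same healthy tissues, so both comparisons share their reference. Again TMED11 alone passed among the 32 members, against 0.28% of all genes tested. At an unadjusted p of 0.05 (limma) 1 member passed, against 1961 of 28936 genes. The median log2 fold change of the translocation genes was -0.38, with 12 of 14 below 0. That of the RAB genes was 0.62, with 12 of 14 above 0, while all genes tested had a median of 0.01 and genes with a symbol 0.10. The difference of class medians was -1.0, and it was -0.04 without healthy tissue 1 and -2.06 without healthy tissue 2. Per tumour its SD was 0.42 over the 3 benign tumours, again without the spread of the healthy tissues. The translocation median itself was 0.54 without healthy tissue 1, with 12 of 14 above 0, whereas the RAB median changed little, to 0.58 with 13 of 14 above 0. Within slides the difference was -1.17 with both healthy tissues and -0.33 with healthy tissue 2 alone.

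The lowest translocation genes in benign against healthy tissue were SEC11C, SSR4 and SEC61A1. SEC11C had a log2 fold change of -1.61 (SE 0.80, adjusted p 0.767), SSR4 of -1.25 (SE 0.80, adjusted p 0.832) and SEC61A1 of -0.90 (SE 0.86, adjusted p 0.911). These sizes depended on the normalisation. With quantile normalisation they were -1.22, -0.48 and -0.15, and 10 of the 14 translocation genes were below 0. With healthy tissue 2 left out, SSR4 passed the test as well, with a log2 fold change of -2.92 and an adjusted p of 0.03. That fit had healthy tissue 1 as its only reference.

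RAB genes of the early secretory route and of endosomes were described next. RAB7A, which directs late endosomes to lysosomes, was -0.78, -1.32, 0.72, -0.09 and 0.39 in the malignant tumours, -0.54, -1.01 and 0.14 in the benign tumours, and -2.38 and -0.94 in healthy tissue. Healthy tissue 1 was the lowest tissue, and healthy tissue 2 lay among the tumours. The log2 fold change of RAB7A was the largest rise among the members in the malignant tumours, 1.45 (SE 0.66, 95% interval -0.01 to 2.91, adjusted p 0.852), and it was 1.19 (SE 0.72, adjusted p 0.819) in the benign tumours. A second RAB7A probe, also above background on all 19 arrays, gave only 0.63 in malignant and 0.58 in benign tumours. RAB5A, of early endosomes, was -0.08, -0.44, 0.56, 1.44 and -0.62 in the malignant tumours, -0.65, -0.48 and -0.39 in the benign tumours, and -1.42 and -0.70 in healthy tissue. All tumours were above both healthy tissues, benign tumour 1 by the narrowest margin. Its log2 fold change was 1.23 (SE 0.59, adjusted p 0.855) in malignant and 0.55 (SE 0.64, adjusted p 0.937) in benign tumours.

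RAB1A, which acts between the endoplasmic reticulum and the Golgi, was 2.69, 2.94, 3.45, 2.97 and 5.22 in the malignant tumours, 2.84, 3.04 and 3.53 in the benign tumours, and 2.68 and 2.49 in healthy tissue. Every tumour was above both healthy tissues here too, although malignant tumour 1 and healthy tissue 1 were nearly level, and malignant tumour 5 stood apart from the rest. The log2 fold change of RAB1A in malignant tumours was 0.87 (SE 0.66, adjusted p 0.945). RAB5A and RAB1A were the 2 members of 32 with all malignant tumours above both healthy tissues, where 4.23% of all genes had this order. In the benign tumours 4 members had it (RAB1A, RAB4B, RAB5A and RAB8A), against 11.9% of all genes, which is a share close to the background. The opposite order, all tumours below both healthy tissues, was found for TMED11 in malignant tumours and for TMED11 and RABAC1 in benign tumours, with backgrounds of 2.79% and 11.6%.

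RAB5C, a close relative of RAB5A on early endosomes, was lowest in healthy tissue 1 at -3.53, with -2.05 in healthy tissue 2, -2.65 to -0.73 in malignant and -2.47 to -0.59 in benign tumours. Its log2 fold change was 0.84 (SE 0.70) in malignant and 1.05 (SE 0.76) in benign tumours. RAB8A, of polarised exocytosis, had a log2 fold change of 0.67 (SE 0.56) in malignant and 0.93 (SE 0.61) in benign tumours. Both genes are dim, and their values depended on the treatment of background. With another background correction (normexp), RAB8A turned to -0.09 in malignant and -0.37 in benign tumours. RAB5C was then 0.18 in malignant and 0.0057 in benign tumours. Malignant tumour 3 had the highest RAB8A level of all tissues, -2.25, with the other tumours between -4.12 and -2.93 and healthy tissue at -3.93 and -4.45. None of these differences passed the test.

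RAB10 and RAB13, which act in transport to the basolateral membrane and at tight junctions, had the largest rises among the members in benign tumours. RAB10 was 0.92, 1.31 and 3.17 in the benign tumours, 1.1 and -0.15 in healthy tissue and -0.33 to 1.40 in the malignant tumours. The log2 fold change of RAB10 was 1.32 (SE 0.78, adjusted p 0.808), and benign tumour 3 was well above all other tissues. RAB13 was -1.22, 0.35 and -1.36 in the benign tumours, -2.70 and -1.30 in healthy tissue and -2.84 to -0.99 in the malignant tumours. Its log2 fold change was 1.25 (SE 0.73, adjusted p 0.805). Here benign tumour 2 was the tissue that stood out. Benign tumour 3 was the highest of all 10 tissues in 5 RAB genes, namely RAB10, RAB11A, RAB22A, RAB25 and RAB5C.

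RAB2A acts in traffic between the endoplasmic reticulum and the Golgi. Its level was 1.96 in healthy tissue 1, 0.45 in healthy tissue 2, -0.42 to 1.67 in malignant and 0.61 to 1.47 in benign tumours. It was the 1 RAB gene of 14 in which healthy tissue 1 exceeded all tumours. Between the healthy tissues the 14 RAB genes were divided, 8 being higher in healthy tissue 1, with a median difference of 0.17 (range -1.48 to 1.51).

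**Figure D3:**
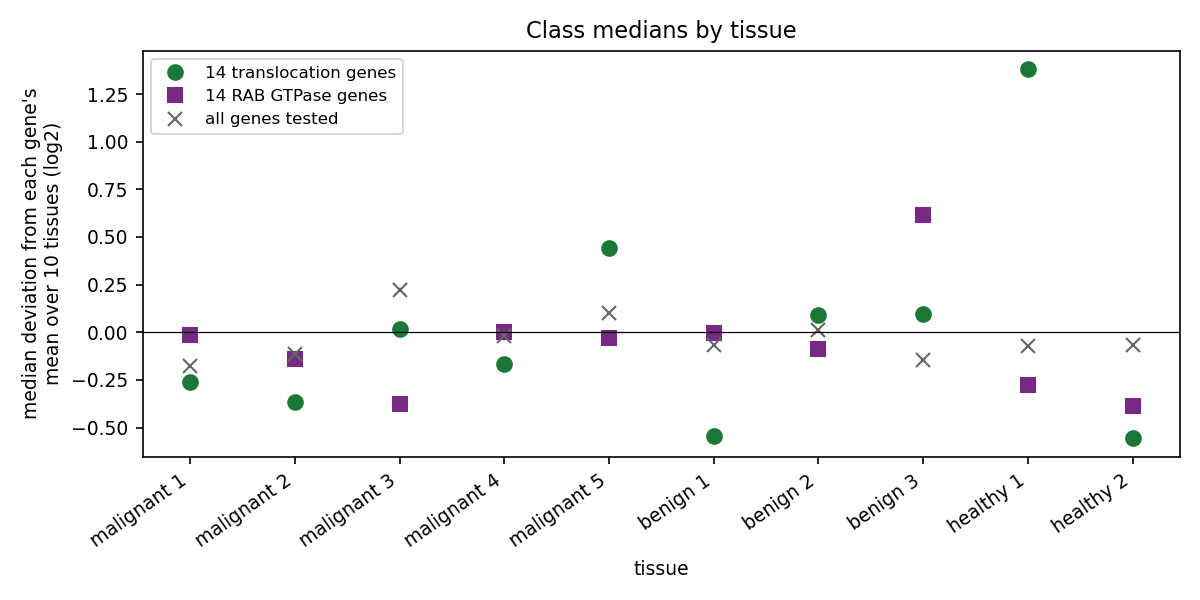
Median deviation of the 14 translocation genes, the 14 RAB GTPase genes and all genes tested from each gene's mean over the 10 tissues (log2 scale, vertical axis), by tissue. Healthy tissue 1 stands at 1.38 for the translocation genes and -0.28 for the RAB genes, healthy tissue 2 at -0.56 and -0.39, and benign tumour 3 at 0.10 and 0.61.

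Expressed as deviations from each gene's own mean over the 10 tissues, the translocation genes had a median of 1.38 in healthy tissue 1 and -0.56 in healthy tissue 2. The tumours lay between these values, from -0.54 in benign tumour 1 to 0.44 in malignant tumour 5. For the RAB genes both healthy tissues were low, at -0.28 and -0.39, as was malignant tumour 3 at -0.37, and benign tumour 3 was the highest at 0.61. The other tumours were within -0.14 and 0.00 for the RAB genes. Within the malignant group the translocation medians spanned -0.36 to 0.44, and within the benign group -0.54 to 0.10.

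TMED11, a member of the p24 family of cargo receptors in the early secretory pathway, was the 1 member that passed the test. It was -8.05, -4.39, -6.62, -7.60 and -7.58 in the malignant tumours, -4.11, -4.50 and -7.96 in the benign tumours, and 5.87 and 1.1 in the healthy tissues. The tumours did not overlap with healthy tissue, an order found in 2.79% of all genes for malignant and 11.6% for benign tumours. TMED11 was the 1 member of 32 for which healthy tissue 2 also exceeded all tumours, against 5.87% of all genes. Its probe exceeded background clearly on 4 of 4 healthy, 4 of 6 benign and 2 of 9 malignant arrays, so that most tumour levels are dim signals and the size of a fold change against them depends on how background is treated. TMED11 was lower in malignant tumours than in the tissues labelled healthy, with a log2 fold change of -10.33 (limma, SE 1.42, adjusted p 0.00888). For benign tumours the log2 fold change was -9.01 (limma, SE 1.55, adjusted p 0.0463).

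The call in malignant tumours was lost without healthy tissue 1 (log2 fold change -7.94, adjusted p 0.19) and with the tissue number as a replicate block (-9.16, adjusted p 0.388), and that in benign tumours was lost in 10 of 19 alternative analyses. The benign call was lost without any 1 of the 3 benign tumours, without malignant tumour 1, 3, 4 or 5 and without healthy tissue 1, where the adjusted p was 0.728. Within each slide that held both groups TMED11 was lower in the tumours, with differences of -12.05 to -7.19. With normexp background correction, which lifts dim signals, the TMED11 log2 fold changes were -6.42 in malignant and -6.70 in benign tumours, and both passed. The exocrine pancreas markers moved in the same tissues. CPB1, a pancreatic carboxypeptidase, was 10.11 and 7.18 in the healthy tissues with a log2 fold change of -13.40 in malignant tumours, and the secretory granule protein GP2 was 9.18 and 4.58 with one of -11.47. Between the healthy tissues TMED11 differed by 4.78, in the direction in which all 7 markers differed. Their part in the TMED11 result was not tested.

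**Figure D4:**
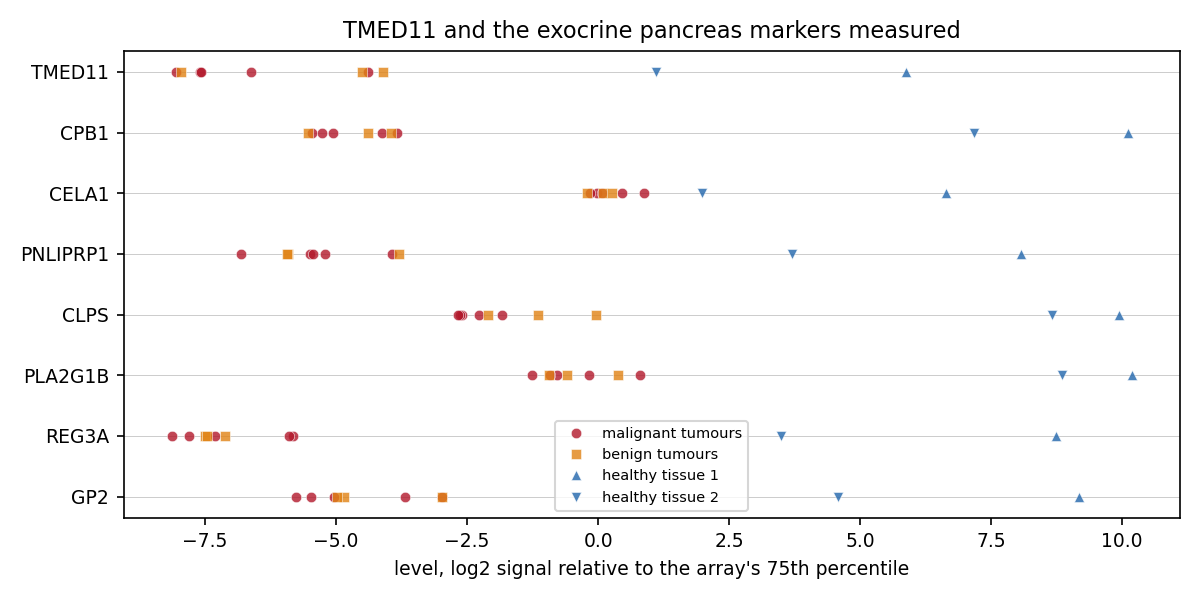
Levels of TMED11 and of the 7 exocrine pancreas markers measured, in each of 10 tissues, as log2 signal relative to the array's 75th percentile. Circles are malignant tumours, squares benign tumours, upward triangles healthy tissue 1 and downward triangles healthy tissue 2. For all 8 genes healthy tissue 1 is highest, healthy tissue 2 next and the 8 tumours lower.

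TMED7, the other p24 member, was 1.48 in healthy tissue 1 and 0.00 in healthy tissue 2, with malignant tumours between -0.83 and 0.79 and benign tumours between -0.48 and 0.38. Its log2 fold change was -0.70 in malignant (SE 0.59, adjusted p 0.951) and -0.69 in benign tumours (SE 0.64, adjusted p 0.903). TMED7 therefore shared the excess in healthy tissue 1 but not a difference of the healthy group as a whole. RABAC1, a receptor for RAB proteins on Golgi membranes, was 3.33, 3.59 and 3.27 in the benign tumours, 5.30 and 3.75 in healthy tissue and 3.14 to 5.97 in the malignant tumours. It had a log2 fold change of -1.13 (SE 0.85, adjusted p 0.868) in benign against healthy tissue. STXBP2, a regulator of vesicle fusion in secretory cells, lay between -1.26 and 0.76 in all 10 tissues and differed by less than 0.06 between group means.

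Malignant and benign tumours were compared directly, which leaves the healthy tissues out of the fold changes. Their spread still entered each SE and p, because all 3 groups shared 1 fit. None of the 32 members passed, and 0% of all genes tested did. With malignant and benign tumours fitted alone, the count of members was also 0. At an unadjusted p of 0.05, limma also counted 0 members, against 512 of 28936 genes. The translocation genes had a median log2 fold change of 0.04, with 8 of 14 above 0, and the RAB genes one of -0.38, with 10 of 14 below 0. All genes tested had a median of 0.08 and genes with a symbol one of -0.05. The class difference was 0.42 (SD over the 5 malignant tumours 0.28, the benign spread not included). Within 4 slides it was 0.41, 0.59, 0.50 and -0.05. With normexp background it was 0.0102, and the translocation median was -0.11 with normexp as well as with quantile normalisation.

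Among translocation genes, SSR2 with 0.72 (SE 0.58), SSR4 with 0.67 (SE 0.64) and SEC61A1 with 0.59 (SE 0.69) had the largest rises in malignant over benign tumours. The SSR2 and SEC61A1 values leaned on malignant tumour 3, as shown above. The mean level of SSR4 was 6.10 ± 0.35 (SD, n = 5) in malignant and 5.43 ± 0.15 (SD, n = 3) in benign tumours, without overlap. The SE and adjusted p of SSR4 also took in the spread of the healthy tissues, an SD of 2.35. SSR4 was the 1 member of 32 with every malignant above every benign tumour, against 1.07% of all genes, and its adjusted p was 1 (limma). No member had the opposite order, against 0.878% of all genes.

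**Figure D5:**
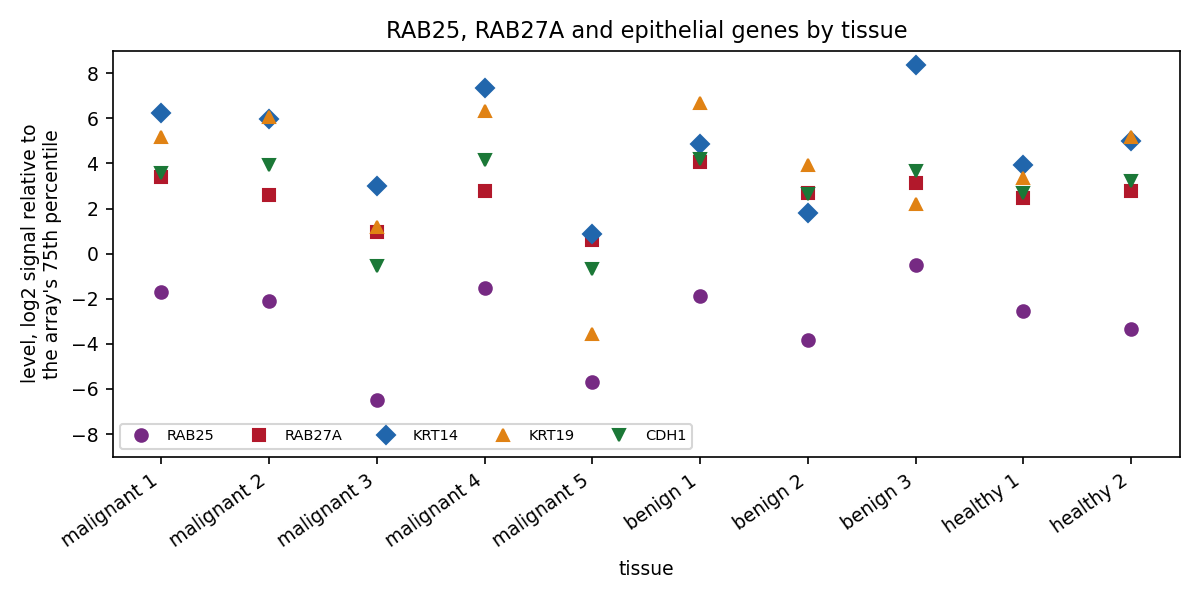
Levels of RAB25 and RAB27A and of the epithelial genes KRT14, KRT19 and CDH1 by tissue, as log2 signal relative to the array's 75th percentile (vertical axis). Malignant tumours 3 and 5 are the lowest tissues for RAB25, RAB27A, KRT19 and CDH1.

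The largest falls among the members in malignant against benign tumours were those of RAB25, TMED11 and RAB27A, in this order. TMED11, dim in most tumours, had a log2 fold change of -1.33 (SE 1.24, adjusted p 1 by limma). RAB25, a RAB of epithelial recycling endosomes, was -1.68, -2.09, -6.48, -1.54 and -5.68 in the malignant tumours, -1.86, -3.81 and -0.48 in the benign tumours, and -2.56 and -3.34 in healthy tissue. Malignant tumours 3 and 5 were thus far below all other tissues, and the 3 remaining malignant tumours were above both healthy tissues. Of the 9 malignant arrays, 6 had RAB25 well above background, as did all benign and healthy arrays. RAB27A, which docks secretory granules and exosomes, was 3.42, 2.61, 0.98, 2.79 and 0.59 in the malignant tumours, 4.08, 2.68 and 3.15 in the benign tumours, and 2.45 and 2.78 in healthy tissue. The same malignant tumours were the lowest. The log2 fold change was -1.44 (SE 1.24) for RAB25 and -1.23 (SE 0.68) for RAB27A, both with an adjusted p of 1 (limma).

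CDH1, the epithelial cadherin, was -0.55 and -0.69 in malignant tumours 3 and 5 and 2.65 to 4.20 in the other 8 tissues. KRT19, a keratin of glandular epithelium, was 1.20 and -3.56 in these tumours and 2.21 to 6.67 elsewhere. PGR, the progesterone receptor, was -3.89 and -4.13 against -2.45 to 2.54. The other 3 epithelial markers measured did not set these tumours apart together. KRT14 was 2.99 and 0.86, with benign tumour 2 at 1.79, ERBB2 was 0.63 and -0.92, the highest and the lowest of all tissues, and ESR1 was -3.62 and -1.85, within the range of the rest. The summed level of the 6 mammary epithelial markers measured was 3.66 and 1.76 in malignant tumours 3 and 5, and 4.75 to 8.45 in the remaining tissues. Their part in the RAB25 and RAB27A levels was not tested.

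Other falls in malignant against benign tumours were those of RAB10 with -1.07 (SE 0.62) and RAB13 with -1.03 (SE 0.59). The rises of RABAC1, with 0.86 (SE 0.68), and of RAB5A, with 0.68 (SE 0.52), completed the extremes on the other side. None passed the test. The RAB genes not described singly (RAB11A, RAB22A, RAB4B and RAB9A) differed by -0.20 to 0.37 (log2) in malignant against healthy tissue, -0.38 to 0.55 in benign against healthy tissue and -0.71 to 0.38 in malignant against benign tumours.

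Of 93 other genes of the secretory pathway that were listed, 10 were measured, and 0 passed the limma test in any of the 3 comparisons. Their median log2 fold change was -0.16 in malignant and -0.08 in benign tumours against healthy tissue. Of the 10, 7 were higher in healthy tissue 1 than in healthy tissue 2, against 51.2% of all genes tested. TRAM1, a membrane protein next to the SEC61 channel, was 6.87 and 4.51 in the healthy tissues and 2.83 to 5.03 in the tumours. CANX, the lectin chaperone of glycoprotein folding, was 4.25 and 1.20 in healthy tissue and 0.91 to 2.76 in the tumours. Against 17.4% of all genes tested, healthy tissue 1 was above every tumour in 5 of the 10, these 2 with OSTC, KRTCAP2 and LMAN2. OSTC and KRTCAP2 are subunits of the oligosaccharyl transferase, and LMAN2 is a cargo lectin that acts after folding. The chaperone HSP90B1, at 7.28 in healthy tissue 1, was higher in malignant tumour 3, with 7.56. ANXA2, an annexin of membrane fusion, was 3.46 and 4.88 in healthy tissue and 4.56 to 6.67 in the tumours, and the clathrin adaptor subunit AP2M1 was 1.5 and 2.77 against 1.76 to 3.85. Healthy tissue 1 was the lowest tissue for both.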

How the data were processed

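Total RNA (Trizol, RNA integrity number above 7 per the labels) was labelled with Cy3 and hybridised to 4-pack Agilent canine arrays. The deposited intensity values were the authors' Agilent Feature Extraction 11.5.1.1 scanner output for 19 arrays (processed, median and background signals), together with a table of median intensity for 22 arrays whose values equalled the scanner medians at all 45220 spots of those 19 arrays. From the processed signal, log2 values minus the 75th percentile of each array over non-control spots were computed, duplicate arrays a and b were averaged, and the brightest probe stood for a gene. The label protocol speaks of biological duplicates and the methods of duplicate arrays, so a and b were counted once. Of 2441 probes with a curated accession, 2348 were named through the RefSeq gene table (assembly UU_Cfam_GSD_1.0) or the file, and the rest were left unnamed. Genes with a probe well above background on fewer than 4 arrays were not tested, which left 28936 genes. One fit of 3 groups was made with limma 3.58.1 in R 4.3.3, with Benjamini-Hochberg adjustment and a threshold of 0.05. The number of arrays limits the precision, and p-values measure the spread between these tissues only.

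The members and lists were chosen with earlier results of these data known. The genes named with values were all translocation genes, every member that passed the test and, for each comparison, the 5 members that rose most and the 5 that fell most. Others were named after their values were seen: RAB2A and TMED7 for their order, RAB4B, RAB11A and RAB22A in counts, and STXBP2 and RAB9A to account for all members. No p is given for a class. The computation was tested on simulated data. Alternatives covered normalisation, background correction (normexp on the median signal, offset 50), filters, probes, source table, slide and replicate blocks, omission of each tissue, and the methods' t-test in unpaired form. The study took tumours from clinical cases and healthy tissue from healthy dogs, so the numbers were not taken as pairs. Same-numbered tissues of different groups correlated between -0.19 and 0.11 in their deviations. That range cannot decide pairing, since different-numbered tissues were not set beside it. The replicate block thus joins tissues by their number only. Malignant tumour 6 and array b of malignant tumour 5 were present in the table of medians only. Sequences of the members are not shown.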

Additional observations from a re-analysis of the deposited data

Results flagged for a closer look

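RAB8A in malignant tumour 3 stood apart from its group: its level was -2.25, with the other 4 malignant tumours between -4.12 and -3.63, and the gap was 0.738 of the group's range. Chance flags about 1 group in 20 by this measure, and all members were examined in the malignant group. Duplicate arrays of a tissue differed by up to 1.23 in RAB8A, and the part of this in the value was not tested.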

How the results depend on the processing

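The class difference and the call of TMED11 depended on the healthy tissues. With single tissues left out, the translocation minus RAB difference ranged from -1.65 to 0.25 for malignant and from -2.06 to -0.0405 for benign against healthy tissue, with healthy tissue 1 omitted at the upper end and healthy tissue 2 at the lower. Members called ranged from 0 to 1 and from 0 to 2. With normexp background the class difference was -0.39 for benign against healthy and 0.0102 for malignant against benign tumours, while the median of all genes moved by -0.20 and 0.12. The count of members called was 0 in both comparisons with healthy tissue when only probes above background on every array were kept, since TMED11 was then not tested. It was also 0 with the methods' t-test after Benjamini-Hochberg adjustment, and 0 for benign tumours when only the 2 groups compared were fitted. Without adjustment that t-test gave 2 of 32 members, SSR4 and RAB22A, for malignant against benign tumours, and 0 with adjustment. The share of all genes at this unadjusted threshold is not given here, so the 2 are not read as a result about the members. With the replicate block the count was 0 for each comparison, and the class differences were -0.88, -1.0 and 0.33. Benign TMED11 kept its call in 9 of 19 alternatives (adjusted p 0.00339 to 0.728) and malignant TMED11 in 17 of 19 (0.00127 to 0.388), always below healthy tissue. Over 638 recomputed fold changes of members per comparison, 55, 31 and 58 changed sign, none of them that of TMED11 against healthy tissue. These changes fell on 25, 19 and 13 of the 32 members. In both comparisons with healthy tissue, most members thus changed direction in at least 1 setting. The scan day as a block was not run, since the first day held malignant tumour 5 alone, as did its slide. With 2 healthy tissues, a lone one left was assumed to vary like the other groups.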

Other observations

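Malignant tumour 6, which the study classed as a fibrosarcoma, had median signals only, and its levels were read from those together with the other tissues on the same scale (log2 median signal, 75th percentile at 0). TMED11 was -3.30 there, against 5.79 and 1.15 in the healthy tissues and -4.48 to -2.68 in the other malignant tumours. SPCS2 was 0.07, below the other malignant tumours at 0.14 to 1.92, and SRP14 was 2.27, below their 2.32 to 3.39. RAB5A was 0.56 and RAB7A 0.36, both above the healthy tissues, which had -1.26 and -0.71 for RAB5A and -1.78 and -0.72 for RAB7A. All other translocation genes of this tumour lay within the range of the other malignant tumours.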
